A study of Mus musculus with 6 samples.

Results

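The insulin-like growth factor (IGF) family was examined as 10 genes, out of 20263 genes measured, in the regrowing prostate of wild-type and Gli1-/- mice. They were named as a family, with earlier results of these data known, and were the ligands Igf1 and Igf2, the receptors Igf1r and Igf2r, and the binding proteins Igfbp2, Igfbp3, Igfbp4, Igfbp5, Igfbp6 and Igfbp7. All 10 were measured, each through its brightest probe set over the 6 mice, and 0 lay in the dimmest 25% of genes (a mean log2 intensity up to 5.53). Each sample came from the ventral and dorsolateral lobes of 1 mouse, 3 per genotype, on a 1-colour array. Every mouse, wild type or mutant, was labelled 10 weeks old. It had been castrated at 8 weeks, had received testosterone from a pellet placed under the skin 2 weeks after castration, and was sampled on day 3 of that treatment. Neither intact nor castrated mice without testosterone were analysed here, so all values describe regrowth only. The sources used here give neither the strain nor the part of Gli1 that the loss-of-function allele removes.

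IGF1 and IGF2 are secreted peptides that promote growth and survival by activating the IGF1 receptor, a tyrosine kinase. The IGF2 receptor takes IGF2 up for degradation and does not signal as a kinase. The classical binding proteins hold IGFs in the extracellular space, where they can keep the ligand from its receptor or store it for release by proteases, while IGFBP7 binds IGFs only weakly. In the prostate the stroma is a major source of IGF1 and the epithelium carries its receptor. In the rat prostate, castration is known to raise transcripts of several binding proteins, Igfbp5 among them.

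Igfbp5 and Igfbp4 had the largest negative and positive differences of the family, and their promoters are shown because Gli1, the factor mutated here, binds DNA. The windows run from 250 bases before to 50 bases after a RefSeq transcript start (GRCm38.p6), 5′ to 3′ on the gene's strand. The Igfbp5 window is chr1:72874816-72875115 on the minus strand, and its capitals mark the stretch nearest to the Gli consensus. The Igfbp4 window is chr11:99040994-99041293 on the plus strand, and its capitals mark a TATA box, which begins at position -28 from the start.
Igfbp5: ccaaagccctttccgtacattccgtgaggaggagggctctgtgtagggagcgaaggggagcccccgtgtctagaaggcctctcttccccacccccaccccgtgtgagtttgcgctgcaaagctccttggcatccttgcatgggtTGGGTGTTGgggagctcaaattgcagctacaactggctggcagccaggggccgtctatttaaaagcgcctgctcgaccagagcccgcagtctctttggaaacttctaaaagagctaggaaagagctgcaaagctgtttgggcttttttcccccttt
Igfbp4: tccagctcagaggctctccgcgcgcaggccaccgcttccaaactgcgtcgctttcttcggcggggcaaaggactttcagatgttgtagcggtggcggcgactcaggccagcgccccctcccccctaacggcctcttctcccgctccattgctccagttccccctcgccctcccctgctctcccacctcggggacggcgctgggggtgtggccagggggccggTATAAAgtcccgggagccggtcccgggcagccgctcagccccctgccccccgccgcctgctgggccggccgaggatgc

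The Gli consensus GACCACCCA, searched on both strands, was present in 0 of the 14 windows of the 10 members and in 0.253% of all 32851 windows. With 1 mismatch allowed it was again present in 0 of the 14, against 6.74% of all windows. In the Igfbp5 window the nearest stretch matched 7 of the 9 letters, with its first base at position -106. A match that close or closer was held by 11 of the 14 member windows and by 58.3% of all windows. The letters TATAAA, searched on both strands, were found in 2 of the 14 windows, on the gene's strand at -28 for Igfbp4 and on the opposite strand at -148 for Igfbp6, against 13.6% of all windows. The androgen receptor half-site AGAACA was found in 2 as well, 1 window of Igfbp2 and 1 of Igf2, against 19% of all windows. These matches describe letters within 300 bases only.

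The mutated gene and the tissue were checked first. Gli1 had a log2 intensity of 6.42 ± 0.12 in wild type against 6.30 ± 0.04 in the mutants (SD, n = 3), with overlapping groups. Because the removed part of the gene is unknown, this transcript does not check the genotype labels. Prostate epithelium was present in both groups. The secretory gene Pbsn lay between 12.80 and 13.40 in wild type and, lower, between 11.96 and 12.61 in the mutants. The basal keratin gene Krt5 lay between 10.30 and 10.81 in wild type and between 10.44 and 10.94 in the mutants. Markers of the adjacent seminal vesicle varied within each genotype, by a mean log2 deviation from -0.80 to 1.59 in wild type and from -0.82 to 1.08 in the mutants.

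Igfbp5 was the family member that differed most, and it was lower in all 3 mutants. Its log2 intensity was 11.46, 11.29 and 11.36 in the wild-type mice, against 11.12, 10.74 and 11.002 in the mutant mice. In all such sentences a genotype's 3 values are given in the order of mice 1, 2 and 3. The groups did not overlap, and mutant 2 was the lowest of the 6. The group means were 11.37 ± 0.08 and 10.95 ± 0.20 (SD, n = 3), a level 1.34-fold higher in wild type. The log2 difference, mutant minus wild type, was -0.42 (SE 0.12, 95% interval -0.70 to -0.13). The unadjusted limma p was 0.00961, which ranked 647 among all genes. Adjusted over all genes it missed the threshold of 0.05 (limma adjusted p = 0.301). Without wild-type mouse 1 and mutant 2 the difference was -0.27 (limma adjusted p = 0.212). In whole-tissue RNA, fewer cells that make a transcript and less of it per cell cannot be told apart.

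Over the whole family 0 of 10 members passed in limma at an adjusted p under 0.05, where 4 genes in all, 2 higher and 2 lower, made up 0.0197% of those tested. Of the 10 members 1, Igfbp5, had an unadjusted p under 0.05, against 10.5% of all genes. Igfbp5 was also the 1 member whose groups did not overlap, where 14.3% of all genes showed no overlap and 6.01% lay lower in the mutants without overlap. Of the 10 members 6 had a positive difference and 4 a negative one, against 48.5% positive over all genes. The median difference of the members was 0.062, and that of all genes was -0.0048. Array weights, a fit that gave wild-type mouse 2 a weight of 7.22 and mutant 3 one of 2.26 and called 23.1% of all genes, called Igfbp5 (-0.31, limma adjusted p = 0.0275) and Igf2 (0.29, limma adjusted p = 0.0437).

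**Figure D1:**
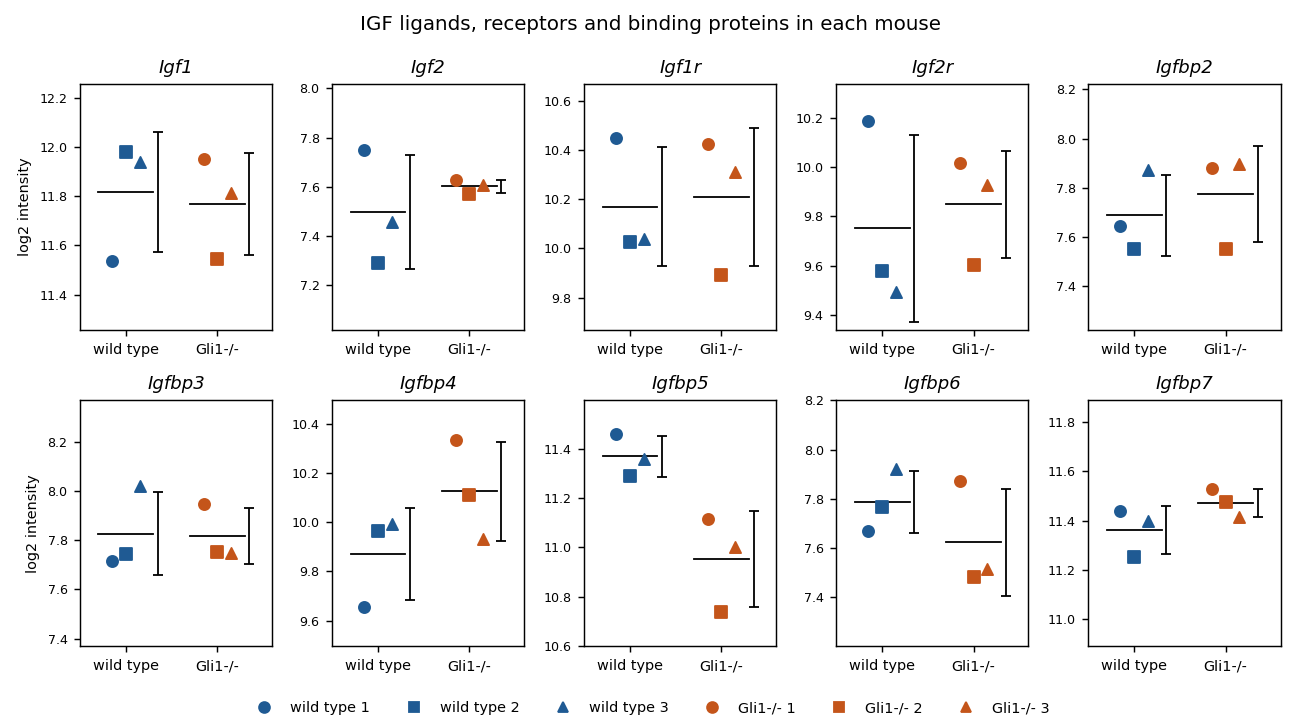
Log2 intensity (vertical axis, each panel spanning 1 log2 unit) of the 10 IGF family genes in 3 wild-type mice (blue) and 3 Gli1-/- mice (orange). Symbols mark mouse number, horizontal bars the group means and error bars the SD. The groups overlap in every panel but that of Igfbp5, where the 3 mutants lie between 10.74 and 11.12 and the wild-type mice between 11.29 and 11.46.

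Among the ligands, Igf1 had close group means and a wide spread within each genotype. It read 11.54, 11.98 and 11.94 in the wild-type mice, against 11.95, 11.54 and 11.81 in the mutant mice. Wild-type mouse 1 and mutant 2 were low by about the same amount, and the other 4 mice lay together, so the groups overlapped fully. The genotypes differed by -0.049 (SE 0.16, 95% interval -0.41 to 0.32, limma adjusted p = 0.96). The direction turned without wild-type mouse 2 (0.031), without wild-type mouse 3 (0.011) or without mutant 2 (0.063), and the difference was -0.19 without wild-type mouse 1.

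Igf1 was represented by 4 probe sets, and each of them was lowest in wild-type mouse 1 and mutant 2. The 3 dimmer ones had a Pearson r of 0.993 to 0.997 with the brightest over the 6 mice. Their differences ran from -0.091 to -0.029. Probe sets of transcripts of 1 gene can share probes, so they are not separate measurements.

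Igf2, the second ligand, is an imprinted gene expressed strongly in the fetus. It read 7.75, 7.29 and 7.46 in the wild-type mice, against 7.63, 7.57 and 7.61 in the mutant mice. The 3 mutants lay within 0.055 of each other and inside the wild-type range of 0.46. The difference was 0.10 (SE 0.13, 95% interval -0.20 to 0.40, limma adjusted p = 0.848). It was -0.0015 without wild-type mouse 2 and 0.23 without wild-type mouse 1. The 3 Igf2 probe sets differed by 0.062 to 0.13, and each was highest in wild-type mouse 1 and lowest in wild-type mouse 2.

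**Figure D2:**
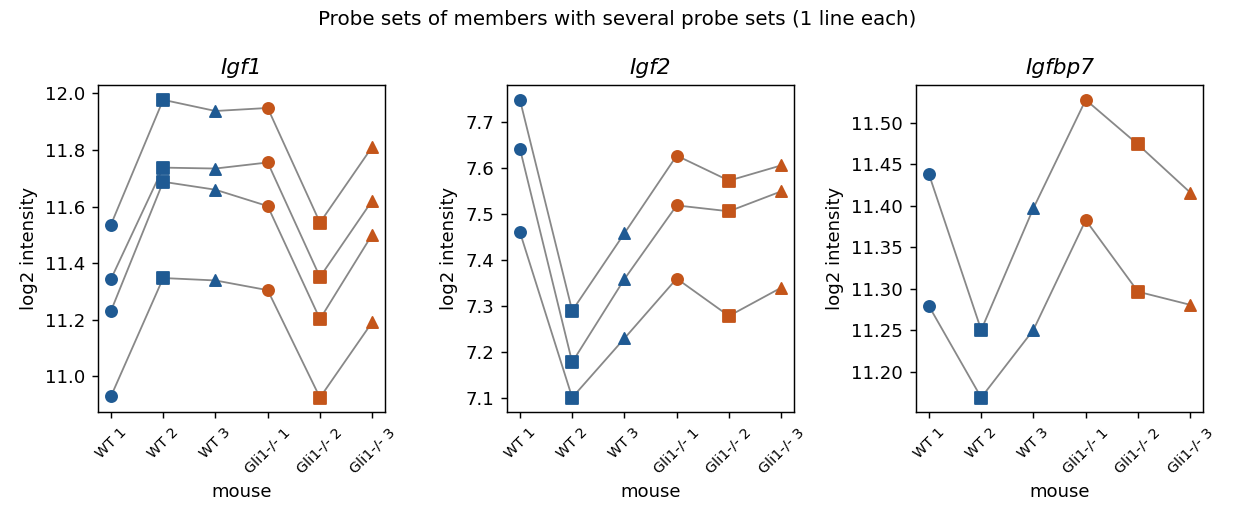
Log2 intensity (vertical axis) of every probe set of Igf1 (4), Igf2 (3) and Igfbp7 (2) in each mouse (horizontal axis), wild type in blue and Gli1-/- in orange. Each grey line joins the values of 1 probe set and implies no order of mice. All Igf1 lines dip at wild-type mouse 1 and mutant 2, and all Igf2 and Igfbp7 lines are lowest at wild-type mouse 2.

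The receptor genes varied between mice more than between genotypes. Igf1r, which encodes the signalling receptor, read 10.45, 10.02 and 10.04 in the wild-type mice, against 10.43, 9.89 and 10.31 in the mutant mice. Igf2r, which encodes the clearance receptor, read 10.19, 9.58 and 9.49 in the wild-type mice, against 10.02, 9.60 and 9.93 in the mutant mice. The same 3 animals, wild-type mouse 1 and mutants 1 and 3, were the high ones for both receptors, and the other 3 were the low ones. The mean log2 deviation of seminal vesicle markers was -0.80, -0.30 and 1.59 in the wild-type mice, against -0.82, 1.08 and -0.76 in the mutant mice. It was thus lowest in those same 3 animals. This was seen after all lists had been compared with the receptors, and its part in their levels was not tested. The genotype difference was 0.038 for Igf1r (SE 0.18, 95% interval -0.37 to 0.45) and 0.098 for Igf2r (SE 0.20, 95% interval -0.37 to 0.56), with limma adjusted p = 0.972 and 0.927. For Igf1r the sign turned without wild-type mouse 2, wild-type mouse 3, mutant 1 or mutant 3 (-0.034, -0.028, -0.070 and -0.012). Without mutant 2 it was 0.20. The Igf2r difference was 0.32 without wild-type mouse 1 and -0.0325 without wild-type mouse 3.

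**Figure D3:**
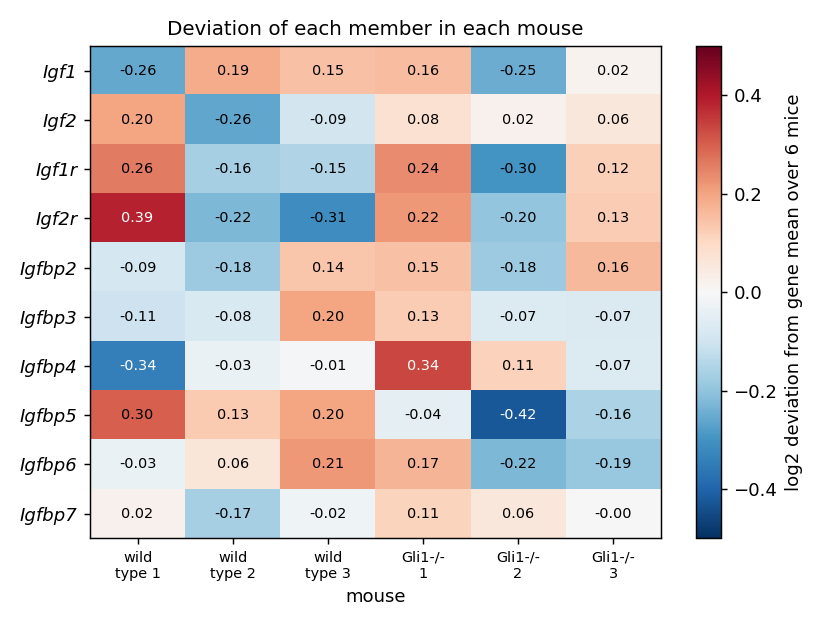
Log2 deviation of each IGF family gene (rows) from its own mean over the 6 mice, in each mouse (columns), with red above and blue below the mean. Igf1r and Igf2r are above their means in wild-type mouse 1 and mutants 1 and 3, Igf1 is lowest in wild-type mouse 1 (-0.26) and mutant 2 (-0.25), and Igfbp5 is above its mean in the 3 wild-type mice and below it in the 3 mutants.

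Of the binding proteins, Igfbp4 had the largest positive difference. IGFBP4 mostly inhibits IGF action until the protease PAPP-A cleaves it. It read 9.66, 9.96 and 9.99 in the wild-type mice, against 10.33, 10.11 and 9.93 in the mutant mice. Mutants 1 and 2 were above every wild-type mouse, and mutant 3 fell among the wild-type values. The difference was 0.25 (SE 0.14, 95% interval -0.074 to 0.58, limma adjusted p = 0.588). It was 0.15 without wild-type mouse 1, 0.15 without mutant 1 and 0.10 with array weights.

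Igfbp2 and Igfbp3 showed small differences beside their spread. Igfbp2, whose product prefers IGF2, read 7.65, 7.55 and 7.87 in the wild-type mice, against 7.88, 7.55 and 7.90 in the mutant mice. Igfbp3, which encodes the main IGF carrier of blood plasma, read 7.72, 7.74 and 8.02 in the wild-type mice, against 7.95, 7.75 and 7.75 in the mutant mice. For both genes the lowest mutant sat beside the lower wild-type mice. Igfbp2 differed by 0.086 (SE 0.14, limma adjusted p = 0.893) and Igfbp3 by -0.010 (SE 0.12, limma adjusted p = 0.99). The Igfbp2 difference was 0.20 without mutant 2 and 0.017 without wild-type mouse 2. The Igfbp3 direction turned without wild-type mouse 3 (0.086), without mutant 2 (0.022) or 3 (0.023), and with array weights (0.043). Igfbp2 is the neighbouring coding gene of Igfbp5 on chromosome 1.

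Igfbp6, whose product binds IGF2 in preference to IGF1, read 7.67, 7.77 and 7.92 in the wild-type mice, against 7.87, 7.48 and 7.52 in the mutant mice. Mutants 2 and 3 were below every wild-type mouse and mutant 1 was not. The difference was -0.16 (SE 0.13, 95% interval -0.47 to 0.15, limma adjusted p = 0.738), and it was -0.29 without mutant 1, -0.11 without mutant 3, -0.094 without wild-type mouse 3 and -0.090 without mutant 2. Igfbp7, a low-affinity relative that is abundant in vessels, read 11.44, 11.25 and 11.40 in the wild-type mice, against 11.53, 11.47 and 11.42 in the mutant mice. Mutants 1 and 2 exceeded every wild-type mouse and mutant 3 did not, a difference of 0.11 (SE 0.097, 95% interval -0.11 to 0.34, limma adjusted p = 0.755). Igfbp7 ranged over 0.28 log2 units across the 6 mice, the narrowest range of the 10 members, and Igfbp5 ranged over 0.72, the widest. The Igfbp7 difference was 0.055 without wild-type mouse 2 and 0.19 with array weights. The second Igfbp7 probe set differed by 0.087.

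**Figure D4:**
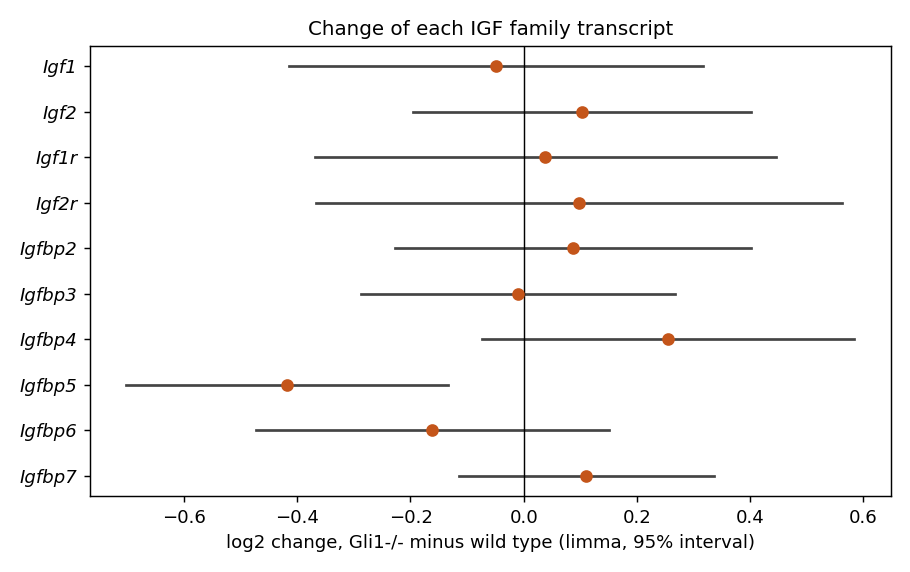
Log2 change of each IGF family gene, Gli1-/- minus wild type (horizontal axis), with the 95% interval from limma as a line; the vertical line marks no change. The interval of Igfbp5 (-0.70 to -0.13) does not include 0 before adjustment over all genes, and the intervals of the other 9 members do.

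Marker lists of other cell types also differed between the groups, and their values stand here beside that of Igfbp5. A list's level in a mouse is given as the mean deviation of its genes, on the log2 scale, from their means over the 6 mice. Lymphocyte markers stood at -0.18, -0.080 and -0.14 in the wild-type mice, against 0.015, 0.23 and 0.15 in the mutant mice. Ranked from low to high, the mice came in the order wild type 1, 3, 2 and mutants 1, 3, 2, which is the order of Igfbp5 from high to low. This likeness was seen after the lists had been compared with Igfbp5, and its part in the Igfbp5 difference was not tested.

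Of the 10 lymphocyte markers 7 had a positive difference (median 0.23) and 4 lay higher in the mutants without overlap, where 8.34% of all genes did so. Their summed linear intensity ranged from 593 to 676 in wild type and from 713 to 897 in the mutants. The T cell genes had differences of 0.78 for Cd3g, 0.29 for Cd3e, -0.021 for Cd4 and -0.069 for Cd3d. Cd3d and the B cell genes Ms4a1 and Cd79a lay in the dimmest 25% of genes. Of the 11 measured macrophage markers all 11 were positive (median 0.58), 8 of them without overlap, and their summed intensity was 4850 to 7332 in wild type and 6775 to 10461 in the mutants. No marker has a value of 0 on this scale, so absence cannot be read from it.

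All 12 smooth muscle markers had negative differences (median -0.54). Of the 12, 7 lay lower in the mutants without overlap, where 6.01% of all genes did so. Their summed intensities were 18852 to 27003 in wild type and 12590 to 17807 in the mutants. All 8 prostate secretory markers were negative as well (median -0.70, 7 without overlap), at 54119 to 67935 in wild type and 38663 to 43279 in the mutants. Luminal epithelial markers, by contrast, were positive for 9 of 12 genes (median 0.12). Of these 12 genes 3 lay higher and 2 lower in the mutants without overlap. The smooth muscle level stood at -0.0035, 0.25 and 0.52 in the wild-type mice, against -0.46, -0.073 and -0.24 in the mutant mice. The secretory level stood at 0.26, 0.33 and 0.59 in the wild-type mice, against -0.51, -0.21 and -0.46 in the mutant mice. Fibroblast markers were positive for 11 of 15 genes (median 0.30), and their level was 0.49 in mutant 1 against -0.18 to -0.012 in the other 5 mice. In limma 0 of the 56 measured genes of the lymphocyte, macrophage, smooth muscle, secretory and fibroblast lists passed over all genes. An unadjusted limma p under 0.05 was found for 33 of the 56, against 10.5% of all genes. These 5 lists were picked from the marker lists with earlier results of these data known. Outside them, such a p was found for 0 of 6 urothelial, 0 of 6 adipocyte, 1 of 7 seminal vesicle and 2 of 12 endothelial markers. It was found for 2 of 11 proliferation genes, 4 of 11 basal and 5 of 10 skeletal muscle markers. Of the 12 luminal markers 2 higher and 1 lower in the mutants had it. The part of these lists in the Igfbp5 difference was not tested.

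**Figure D5:**
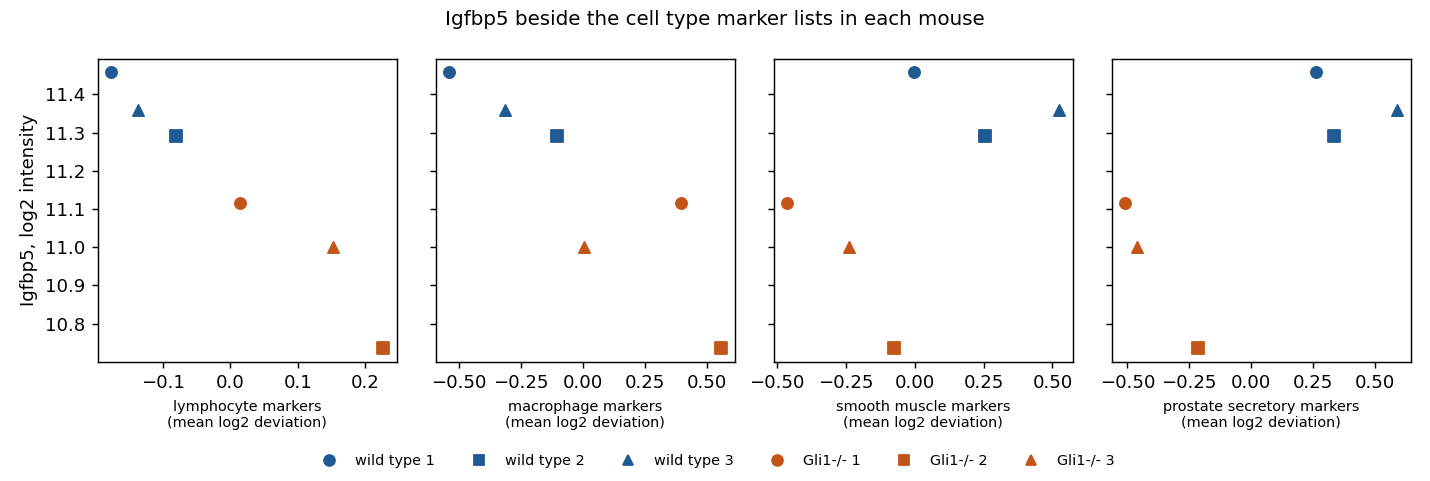
Igfbp5 log2 intensity (vertical axis) against the level of 4 marker lists (horizontal axes, mean log2 deviation) in the 3 wild-type (blue) and 3 Gli1-/- (orange) mice. The lymphocyte panel falls steadily from wild-type mouse 1 to mutant 2. Macrophage levels run from -0.54 to -0.11 in wild type and from 0.0043 to 0.56 in the mutants. Smooth muscle levels run from -0.0035 to 0.52 in wild type and from -0.46 to -0.073 in the mutants. Secretory levels run from 0.26 to 0.59 in wild type and from -0.51 to -0.21 in the mutants.

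Proliferation genes, basal epithelial markers and endothelial markers were compared as well. All 11 measured proliferation genes had negative differences (median -0.40), 0 of them without overlap, and their summed intensity was 4547 to 6285 in wild type and 3059 to 5254 in the mutants. Basal markers were positive for 10 of 11 genes (median 0.34, 4 without overlap) and endothelial markers for 11 of 12 (median 0.14, 2 without overlap). Over all genes 8.34% lay higher in the mutants without overlap. The basal list stood at 0.047, -0.27 and -0.20 in the wild-type mice, against 0.32, 0.11 and 0.0005 in the mutant mice. Igfbp7 likewise was highest in mutant 1, followed by mutant 2, and lowest in wild-type mouse 2. This likeness was seen after all lists had been compared with Igfbp7, and the part of these lists in the Igfbp7 difference was not tested.

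Several marker lists stood beside Igfbp4, and they were picked after all lists had been compared with it. Skeletal muscle markers, which mark adjacent striated muscle, stood at -0.66, 0.087 and -0.42 in the wild-type mice, against 0.83, 0.39 and -0.22 in the mutant mice. Both measures were lowest in wild-type mouse 1 and highest in mutant 1, followed by mutant 2. All 10 skeletal muscle genes had positive differences (median 0.59). Of the 10, 1 lay higher without overlap, against 8.34% of all genes. Their summed intensity was 1674 to 2589 in wild type and 2017 to 4278 in the mutants. Macrophage markers stood at -0.54, -0.11 and -0.31 in the wild-type mice, against 0.40, 0.56 and 0.0043 in the mutant mice, again lowest in wild-type mouse 1 and highest in mutants 1 and 2. The fibroblast and adipocyte lists, too, were lowest in wild-type mouse 1 and highest in mutant 1. The proliferation list was highest in wild-type mouse 1 and lowest in mutant 1. The part of these lists in the Igfbp4 difference was not tested.

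By Pearson r over the 6 mice, the coding genes most like Igfbp5 among 18692 compared were Olfr1034 (0.985), Herpud2 (0.984), Sipa1l2 (0.982), Astn2 (0.979) and Tfdp2 (0.976). Their own differences ran from -0.32 to -0.10, smaller than that of Igfbp5, and 0 of the 5 passed in limma. The 6 points include the difference between the genotypes, and 22 genes had an r over 0.95. The 5 genes were taken as the highest r among the 18692, and a link between them and Igfbp5 was not tested.

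The wider IGF network likewise held 0 genes that passed in limma. Of 24 listed carriers, proteases and RNA-binding regulators 23 were measured, with 16 positive and 7 negative differences (median 0.077). An unadjusted limma p under 0.05 was found for 3 of the 23, against 10.5% of all genes. Those 3 were higher in the mutants. Igf2bp3, which encodes an RNA-binding protein that attaches to Igf2 transcripts, read 4.61, 4.71 and 4.73 in the wild-type mice, against 5.03, 5.13 and 5.04 in the mutant mice, all in the dimmest 25% of genes (difference 0.39, SE 0.092, limma adjusted p = 0.221). Its relative Igf2bp2 read 6.31, 6.28 and 6.29 against 6.52, 6.48 and 6.64 (difference 0.25, SE 0.092, limma adjusted p = 0.417). The groups did not overlap for either gene. Mmp2, a gelatinase that can cleave binding proteins, differed by 0.74 (SE 0.27, limma adjusted p = 0.4), and its groups overlapped because mutant 2 read 8.71 and wild-type mouse 1 read 8.80.

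A few further genes of that list, picked for their role after their values had been seen, bear on the binding proteins. Pappa, which encodes a protease of IGFBP4 and IGFBP5, read 7.05 ± 0.10 in wild type, against 6.82 ± 0.15 in the mutants (SD, n = 3), a difference of -0.23 (SE 0.11, limma adjusted p = 0.529). Stc2, which encodes an inhibitor of that protease, read 8.95, 8.85 and 8.38 in the wild-type mice, against 8.35, 7.25 and 8.43 in the mutant mice. Mutant 2 was the lowest, the groups overlapped, and the genotypes differed by -0.72 (SE 0.31, limma adjusted p = 0.481). Their relatives Pappa2 and Stc1 differed by -0.13 (SE 0.16) and 0.016 (SE 0.12). Igfals, which encodes the plasma partner of IGFBP3 and IGFBP5 complexes, read 7.49, 7.25 and 7.57 in the wild-type mice, against 7.65, 7.88 and 7.63 in the mutant mice. It was higher in all 3 mutants without overlap, by 0.28 (SE 0.12, limma adjusted p = 0.48). Of the 23 measured genes of the list 3 lay higher without overlap, against 8.34% of all genes. Igfbp1, the liver-type binding protein and neighbour of Igfbp3, read 5.88 ± 0.11 and 5.95 ± 0.02.

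Downstream, the 34 genes of insulin and IGF receptor signalling had 19 positive and 15 negative differences (median 0.019). In limma 0 of the 34 had an unadjusted p under 0.05, against 10.5% of all genes. The 3 with the smallest p were Rheb, a GTPase that activates mTOR (-0.31, SE 0.15), the kinase gene Akt2 (0.28, SE 0.14) and Pik3cd, the leukocyte-rich catalytic subunit of PI3-kinase (0.20, SE 0.11). Limma adjusted p was 0.515, 0.54 and 0.571. Akt2 was higher in all 3 mutants, at 10.19, 10.23 and 10.36 against 10.15, 10.11 and 9.70 in wild type. Of the 34 genes 1 (Akt2) lay higher and 1 (Pik3cb, -0.15, SE 0.095) lower in the mutants without overlap, where 14.3% of all genes showed no overlap. Phosphorylation, through which this pathway is switched on, was not measured.

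Growth hormone, acting through its receptor, JAK2 and STAT5, drives Igf1 transcription in liver. Of 9 genes of that axis 6 were positive and 3 negative (median 0.063), and 0 passed in limma. An unadjusted limma p under 0.05 was found for 1 of the 9, against 10.5% of all genes. Jak2 read 8.86, 8.82 and 8.71 in the wild-type mice, against 9.24, 8.94 and 9.18 in the mutant mice, without overlap (difference 0.32, SE 0.11, limma adjusted p = 0.388). The feedback inhibitor gene Socs3 differed by 0.29 (SE 0.13, limma adjusted p = 0.482), with overlap. The prolactin receptor gene Prlr differed by -0.29 (SE 0.17, limma adjusted p = 0.61), and its mutants, at 11.11, 10.61 and 11.25, reached into the wild-type range of 11.16 to 11.42.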

How the data were processed

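RNA of the ventral and dorsolateral lobes, from 3 mice per genotype (wild type, Gli1-/-), was labelled with biotin for a 1-colour array, per the labels' protocols. The authors deposited log2 intensities, 1 column per mouse and 32025 probe sets named by RefSeq transcript, and the submitters' processing notes list the tools RMA and Partek, with neither role nor version. RMA compresses differences of dim genes. The sources used here give no array model or genome build. Column medians lay between 6.76 and 6.95.

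Symbols came from a RefSeq table (GRCm38.p6): 25343 probe sets (79.1%) matched 1 gene. Each of 20263 genes was represented by its brightest probe set. Gli1-/- minus wild type was fitted with limma 3.58.1 in R 4.3.3 over all genes and 6 mice, two-sided and without covariates, and called at a Benjamini-Hochberg adjusted p under 0.05. The procedure was tested on simulated data. The number of arrays limits the precision: the median SE was 0.123. Members and lists (207 of 210 listed genes measured) were chosen with earlier results of these data known. The members, Gli1, the 3 genes of smallest p in each pathway list and the 5 genes most like Igfbp5 are named by rule. Alternatives covered the replicate block, variance prior, array weights, normalization, centring, a dim filter, probe-set choice, a minimum change and mice left out.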

Additional observations from a re-analysis of the deposited data

How the results depend on the processing

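In 15 of 16 alternatives 0 members passed in limma, and array weights called 2 of 10. The median difference of the members moved between -0.028 and 0.15. Over all genes 4 passed; 25 did with the replicate block, 4680 with array weights, 9 with median centring, 8 without dim genes, 3 to 17 without 1 mouse, and 868 without wild-type mouse 1 and mutant 2. Igfbp2, Igfbp4, Igfbp5, Igfbp6 and Igfbp7 kept their sign in all 16. Igfbp5 ranged from -0.50 to -0.27, and its limma adjusted p from 0.0275 to 1, the last with a minimum change of 1.2-fold. The other 5 turned in 13 values. With 1 mouse, or both wild-type mouse 1 and mutant 2, left out, the differences ran from -0.19 to 0.063 for Igf1, from -0.0015 to 0.24 for Igf2, from -0.070 to 0.34 for Igf1r, from -0.0325 to 0.44 for Igf2r and from -0.076 to 0.086 for Igfbp3, which also turned with array weights (0.043). The cause was not tested. Same-numbered mice had deviations correlated at 0.162, 0.248 and -0.153. Differently numbered mice were not compared in this way, so these values do not settle whether the numbers pair the mice. With the replicate block Igfbp5 had a limma adjusted p of 0.204.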
